A study of Mus musculus with 6 samples.

Results

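The Bardet-Biedl syndrome genes followed here were 10 of the 24422 genes counted in P13 mouse kidneys, chosen by symbol: Bbs1, Bbs2, Arl6, Bbs4, Bbs5, Mkks, Bbs7, Ttc8, Bbs9 and Bbs10. All 10 were in the count tables and all 10 received an adjusted p. The RNA came from whole kidneys of C57BL/6 mice at postnatal day 13 on a diet with 220 ppm iron. There were 3 Control kidneys (genotype wild type in the labels) and 3 TfR1 knockout kidneys (Tfr1f/f;SixCre). In the knockout, exons 3 and 4 of the transferrin receptor gene Tfrc are flanked by loxP sites and removed by Six2Cre, a recombinase active in the nephron progenitors, and lineages outside the nephron are not its target. The study also describes nephron cells that escaped deletion. Nothing in the labels says whether the kidneys of a group came from separate litters, and p-values measure only the spread between these samples.

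Bardet-Biedl syndrome is an inherited disease of the cilium that affects the retina, the kidney, body weight and the digits, and cystic or dysplastic kidneys are among its features. Most of its gene products form or serve the BBSome, a coat-like complex that rides on intraflagellar transport trains and carries membrane proteins, mostly out of the primary cilium, the single sensory antenna of nearly every tubule cell. Arl6, a small GTPase, recruits the BBSome to membranes, and Mkks and Bbs10 resemble chaperonins and work with the CCT ring to assemble the complex. Bbs1, Bbs2, Bbs4, Bbs5, Bbs7, Ttc8 and Bbs9 encode 7 of its subunits.

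Total counts ran from 16591156 to 22898008 per library. Among 12114 genes averaging 100 or more normalized counts (counts divided by the DESeq2 size factor of the library), Control replicate 3 had 357 more than 2-fold below and 263 more than 2-fold above both other Control libraries. TfR1 knockout replicate 2 had 365 below and 194 above its group. These counts ran from 4 to 214 in the other 4 libraries, where 214 was the number above its group in TfR1 knockout replicate 1. Among the Control libraries, replicate 3 held the lowest value of 7 of the 10 Bardet-Biedl genes, and among the knockout libraries, replicate 2 held the lowest value of 6. The targeted gene itself did not separate the groups. Tfrc had 5534, 6485 and 3667 normalized counts in Control replicates 1 to 3 and 6976, 4045 and 5898 in the knockout replicates (log2 fold change 0.11, SE 0.29, DESeq2 adjusted p 0.853), so this gene does not check the labels.

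Transcripts of the Bardet-Biedl genes were lower in TfR1 knockout kidneys. The normalized counts of the 10 genes summed to 4355, 4547 and 3874 in Control replicates 1 to 3 and to 2774, 2494 and 2725 in the knockout replicates. Every member had a negative log2 fold change, from -1.39 for Ttc8 to -0.32 for Bbs4, with a median of -0.67 against 0.0071 over all 16509 genes tested. With an adjusted p under 0.05 (DESeq2 Wald test), 7 of 10 fell (Bbs1, Bbs2, Arl6, Bbs5, Bbs7, Ttc8 and Bbs10), where 7.18% of all genes tested fell. The members were chosen with earlier results of these data known, so the shares of all genes stand beside them as a description. No member rose (0 at an unadjusted p under 0.05 as well, and 0 in edgeR), where 7.74% of all genes rose. With a fold change of at least 2 as well, 3 fell (Bbs1, Ttc8 and Bbs10), where 4.46% of all genes did. In 8 of 10, all but Bbs4 and Mkks, each knockout library was below each Control library, which held for 16.9% of all genes tested. In these bulk kidneys, fewer cells of a type and less RNA per cell cannot be told apart.

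The choice of test changed how many members passed, not their direction. The quasi-likelihood test of edgeR called Bbs2 and Bbs7 (adjusted p 0.0382 and 0.0296), 2 of 10, where 2.80% of 15308 genes were called lower. At an unadjusted p under 0.05, edgeR passed 9 of 10 as lower, all but Bbs4, where 13.0% of all genes passed as lower. Arl6, Ttc8 and Bbs1 had edgeR adjusted p of 0.0545, 0.0551 and 0.0677, while Bbs5 and Bbs10 had 0.114 and 0.127. Limma-voom called Bbs2, Bbs7 and Ttc8, 3 of 10, where 2.98% of all genes were called lower. With DESeq2, 2 members passed without Control replicate 1 or 2, and 4 passed without TfR1 knockout replicate 3. Over all genes, 575, 627 and 659 were called lower in these runs, against 1186 with all 6 libraries. When Control replicate 3, TfR1 knockout replicate 1 or TfR1 knockout replicate 2 was omitted, 6 members passed. Over all genes, 1111, 1674 and 886 were then called lower. With libraries scaled by total counts, Bbs9 also passed and 8 of 10 were lower, while the calls over all genes went from 1186 lower and 1277 higher to 1407 lower and 996 higher.

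**Figure D1:**
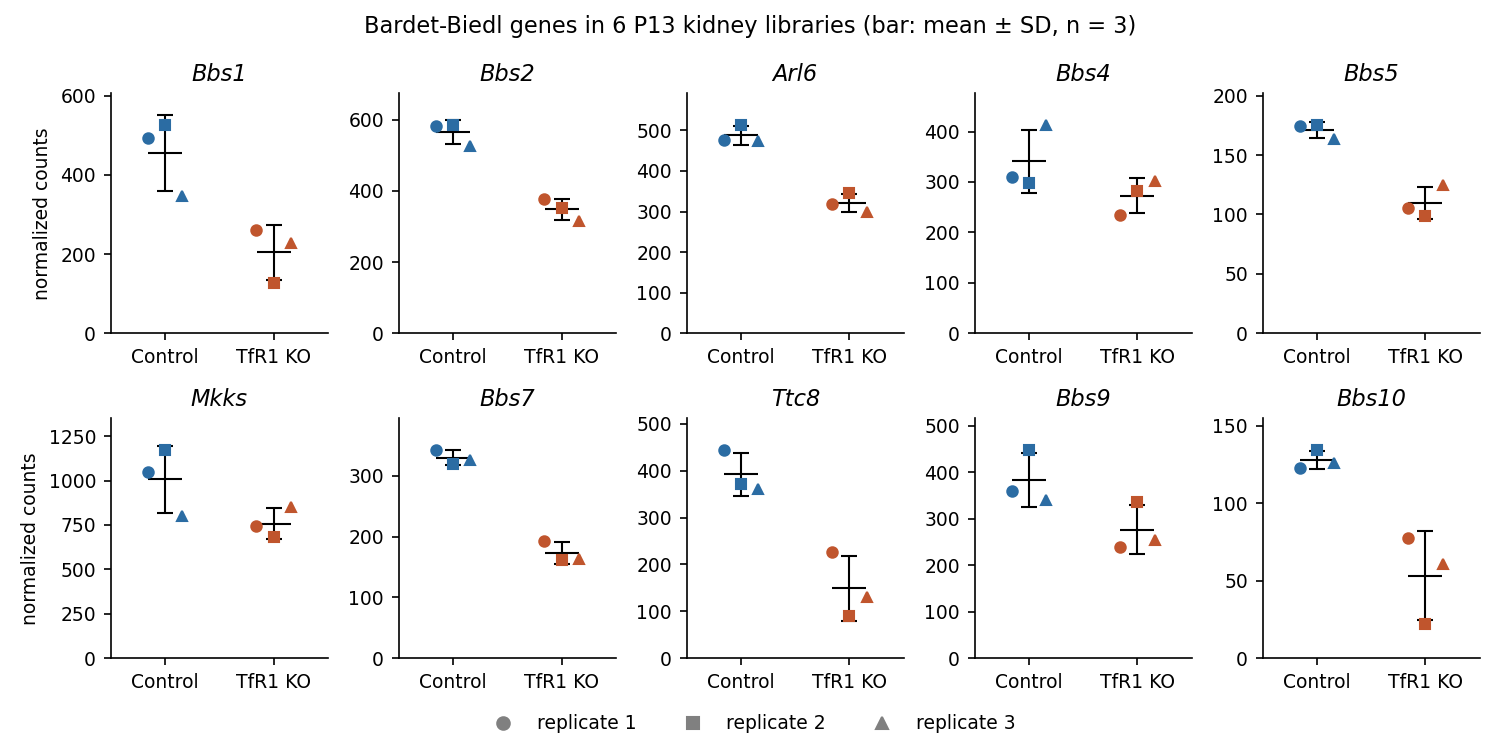
Normalized counts (y axes, each starting at 0) of the 10 Bardet-Biedl genes in the 3 Control and 3 TfR1 knockout libraries, with a symbol for each replicate number and bars for the mean ± SD (n = 3). The groups overlap in Bbs4 and Mkks, and Bbs1, Ttc8 and Bbs10 show the lowest knockout value in replicate 2.

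Ttc8, Bbs1 and Bbs7 had the lowest log2 fold changes among the BBSome subunits. Ttc8 (chromosome 12, 100158784 to 100221448, mm9), which encodes the subunit also named BBS8, had 445, 372 and 361 normalized counts in Control replicates 1 to 3 and 227, 90.8 and 130 in the knockout replicates. The groups did not overlap, and the knockout libraries spread more widely (149 ± 70.0 against 393 ± 46.0, mean ± SD, n = 3 each) since replicate 1 held more than the other 2. Knockout kidneys had 38.1% of the Control level (log2 fold change -1.39, SE 0.35, DESeq2 adjusted p 0.0013). Ttc8 kept its DESeq2 call in all 6 omissions of a library, with a log2 fold change of -1.82 when TfR1 knockout replicate 1 was omitted and of -1.14 when TfR1 knockout replicate 2 was.

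Bbs1 (chromosome 19, 4886898 to 4906627) encodes the subunit through which Arl6 binds the complex. It had 493, 526 and 346 normalized counts in Control and 261, 127 and 227 in knockout kidneys. Its lowest Control value was in replicate 3 and its lowest knockout value in replicate 2. These were the libraries with the most genes more than 2-fold below both others of their group. The means were 455 ± 96.2 and 205 ± 69.7, which is a log2 fold change of -1.15 (SE 0.33, DESeq2 adjusted p 0.00552). Omitting either of Control replicates 1 and 2 raised the DESeq2 adjusted p to 0.071 and 0.0805.

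Bbs7 (chromosome 3, 36472064 to 36512399), part of the core on which the complex is built, had close values within each group. Its values were 343, 319 and 326 in Control and 193, 161 and 163 in knockout kidneys. The distance between the groups was several times the SD of either (329 ± 12.3 against 172 ± 17.9), and knockout kidneys had 52.3% of the Control level (log2 fold change -0.93, SE 0.19, DESeq2 adjusted p 4.63e-05). Bbs7 and Ttc8 were the members called in all 6 omissions of 1 library, and Bbs7 was also called by edgeR and limma-voom.

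Bbs2 (chromosome 8, 96591854 to 96622711) is a partner of Bbs7 in the same core. It had 583, 585 and 525 normalized counts in Control and 377, 351 and 316 in knockout kidneys. The groups lay well apart, with SDs of 34.0 and 30.6 around means of 565 and 348 (log2 fold change -0.70, SE 0.17, DESeq2 adjusted p 9.84e-04). Omitting Control replicate 1 or 2 gave DESeq2 adjusted p of 0.0615 and 0.0526.

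Bbs5 (chromosome 2, 69485228 to 69505628), the subunit with phosphoinositide-binding domains, had 175, 175 and 164 normalized counts in Control and 105, 98.5 and 125 in knockout kidneys. These low counts were tight within each group and did not overlap (log2 fold change -0.64, SE 0.23, DESeq2 adjusted p 0.0381). Leaving out any 1 of the 6 libraries lost the call of Bbs5, with DESeq2 adjusted p from 0.0804 to 0.255.

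The remaining subunits did not pass. Bbs9 (chromosome 9, 22280159 to 22692724) had 360, 449 and 340 normalized counts in Control and 239, 336 and 254 in knockout kidneys, so that the highest knockout library reached just under the lowest Control library (log2 fold change -0.48, unadjusted 95% interval -0.94 to -0.013, DESeq2 adjusted p 0.169). Bbs4 (chromosome 9, 59169773 to 59201315), the subunit that binds the centriolar satellite protein Pcm1, had 311, 298 and 413 in Control and 235, 281 and 302 in knockout kidneys. It was the member whose value was highest in Control replicate 3, and its groups overlapped (log2 fold change -0.32, 95% interval -0.77 to 0.13, DESeq2 adjusted p 0.383). Without Control replicate 3 the log2 fold change of Bbs4 was -0.16.

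**Figure D2:**
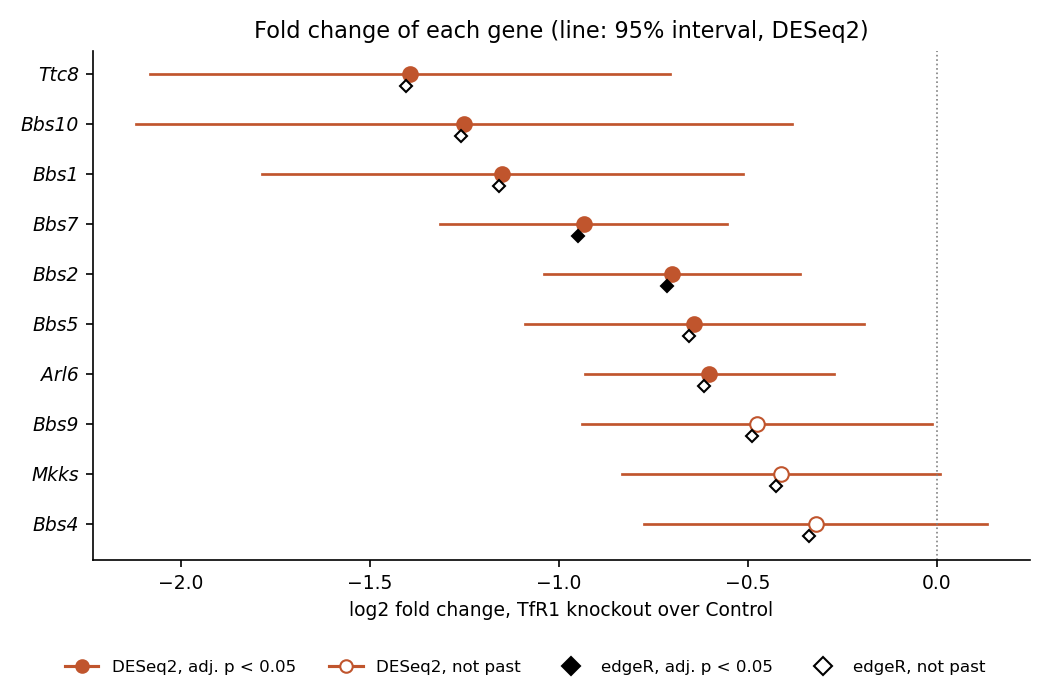
Log2 fold change of TfR1 knockout over Control (x axis) for each gene, from DESeq2 with its 95% interval (circles and lines) and from edgeR (diamonds), filled where the adjusted p was under 0.05. All 10 lie below 0; 7 circles but only the diamonds of Bbs2 and Bbs7 are filled.

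Arl6, the GTPase that brings the BBSome to the membrane, fell with the subunits. Arl6 (chromosome 16, 59612775 to 59639217) had 476, 514 and 473 normalized counts in Control and 319, 345 and 300 in knockout kidneys. Knockout libraries kept to a narrow range below all Control libraries (322 ± 22.9 against 487 ± 22.8), at 65.9% of the Control level (log2 fold change -0.60, SE 0.17, DESeq2 adjusted p 0.00474). Arl6 did not pass when Control replicate 1, Control replicate 2 or the third knockout library was omitted (DESeq2 adjusted p 0.0943, 0.125 and 0.0965). Arl6 is on the same chromosome as the floxed Tfrc gene, 27.0 Mb away.

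The chaperonin-like genes differed in whether they passed. Bbs10 (chromosome 10, 110735735 to 110738792) had 123, 135 and 126 normalized counts in Control and 77.6, 21.7 and 60.5 in knockout kidneys. It was the least abundant member, with 17 reads in TfR1 knockout replicate 2, and the Control values were close while the knockout values spread (128 ± 6.05 against 53.3 ± 28.6). The log2 fold change was -1.25 (SE 0.44, DESeq2 adjusted p 0.0359). It was -0.89 without TfR1 knockout replicate 2, still past the threshold, and -1.61 without TfR1 knockout replicate 1. The call was lost without any 1 of the 3 Control libraries or without TfR1 knockout replicate 3 (DESeq2 adjusted p 0.100 to 0.181).

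Mkks (BBS6; chromosome 2, 136699516 to 136717125) was the most abundant member, with 1046, 1174 and 801 normalized counts in Control and 742, 681 and 849 in knockout kidneys. The lowest Control value, that of replicate 3, was under the highest knockout value, so the groups overlapped (log2 fold change -0.41, 95% interval -0.83 to 0.0099, DESeq2 adjusted p 0.195). Without Control replicate 3, Mkks passed (log2 fold change -0.55, DESeq2 adjusted p 0.0343). Exons of Mkks share 172 bases with 2210009G21Rik on the opposite strand, and the strand setting of the counting is not given in the sources used here, so reads of these genes cannot be told apart there.

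**Figure D3:**
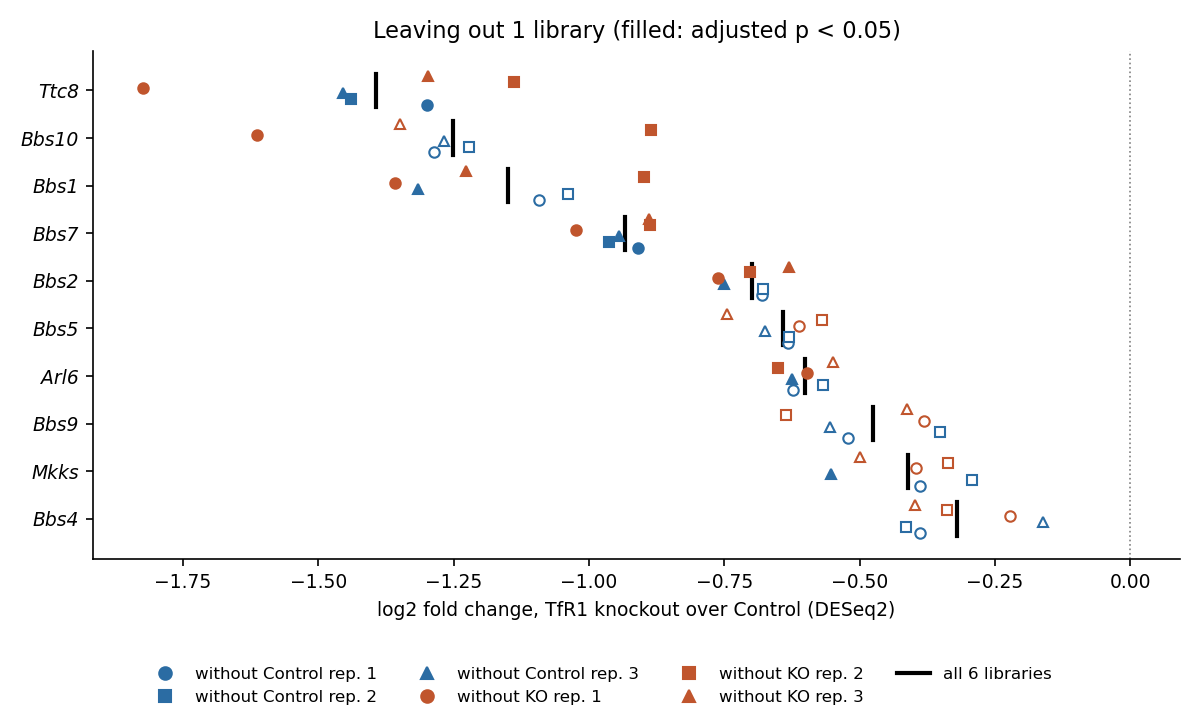
Log2 fold change (x axis, DESeq2) of each gene with all 6 libraries (black lines) and without each library in turn (symbols, filled where the adjusted p stayed under 0.05). All values stay below 0; Ttc8 and Bbs10 range most widely, and without TfR1 knockout replicate 2 both lie closest to 0.

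With Control replicate 3 and TfR1 knockout replicate 2 both left out, 7 of 10 members were again called, with Mkks and Bbs9 in place of Bbs5 and Bbs10, where 8.79% of all genes were called lower. The median log2 fold change of the members was then -0.73. Base composition also moved with the libraries. Across 11132 genes, which are not independent replicates, the deviation from the group mean had a Spearman correlation with transcript GC content of -0.285 in TfR1 knockout replicate 2 and 0.278 in TfR1 knockout replicate 1. The longest coding transcripts of the members held from 39.9% (Bbs5) to 51.9% (Bbs1) GC. With a GC trend removed from each library, Bbs1, Bbs2, Arl6, Bbs7 and Ttc8 were called (5 of 10, where 7.83% of all genes were called lower), while Bbs5 and Bbs10 had DESeq2 adjusted p of 0.0731 and 0.0534.

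Levels between genes were compared as normalized counts per kilobase of the longest coding transcript. In Control kidneys Mkks (317 ± 59.7) and Arl6 (287 ± 13.4) were highest and overlapped within their SDs. Bbs2 followed at 192 ± 11.5 and lay below Arl6 by more than the spread. From Bbs2 through Ttc8 (173 ± 20.2), Bbs4 (134 ± 24.8), Bbs7 (123 ± 4.58), Bbs5 (117 ± 4.53), Bbs9 (110 ± 16.6) and Bbs1 (81.5 ± 17.2), each neighbour overlapped the next within 1 SD. Bbs10, at 46.4 ± 2.20 per kilobase, was lowest and apart from Bbs1. With merged exons as the length, the order of the top 6 was the same, while Bbs1 came before Bbs5 and Bbs9. In knockout kidneys Ttc8 stood in 7th place at 65.6 ± 30.8 per kilobase against the 4th in Control kidneys, and Mkks and Arl6 still led at 238 ± 26.9 and 190 ± 13.5.

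**Figure D4:**
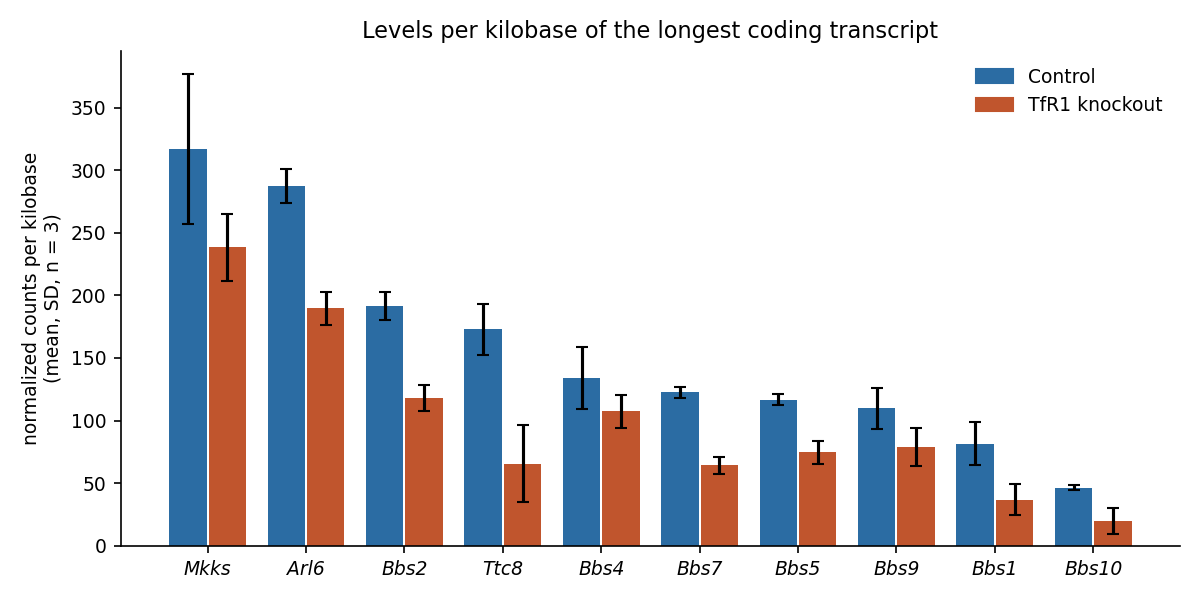
Mean normalized counts per kilobase of the longest coding transcript (y axis from 0; error bars SD, n = 3) of the 10 genes in Control and TfR1 knockout kidneys, in the order of the Control level. The Mkks and Arl6 bars are highest in both groups, and the Ttc8 bar drops from 173 to 65.6.

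The members also resembled each other across the 6 libraries, as a description over points that share library, depth and group. The Pearson correlation of log2(normalized count + 1) with the mean z-score of the other 9 members was 0.97 for Bbs7 and Bbs5, 0.96 for Bbs2, 0.93 for Arl6, 0.91 for Bbs1 and 0.90 for Ttc8. It was 0.83 for Bbs10, 0.78 for Mkks, 0.68 for Bbs9 and 0.47 for Bbs4. Among 12105 other genes averaging 100 or more normalized counts, those most like the mean z-score of all 10 members were Frmd4a (r = 0.999), Sema3e (0.995), Dnajc6 (0.995), Ift80 (0.995) and Ccnb2 (0.994). Ift80 is a subunit of the intraflagellar transport B complex, Sema3e a semaphorin guidance cue, Dnajc6 the clathrin-uncoating co-chaperone auxilin and Ccnb2 a mitotic cyclin. Ift80 had 813, 860 and 694 normalized counts in Control replicates 1 to 3 and 395, 307 and 348 in the knockout replicates.

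Of 12 further genes linked to Bardet-Biedl syndrome, 3 fell and 0 rose, and 11 of 12 had a negative log2 fold change (median -0.40). Over all genes tested, 7.18% fell and 7.74% rose. Of the 12, edgeR called only Wdpcp, where 2.80% of all genes were called lower. Without any 1 of the 3 Control libraries or TfR1 knockout replicate 3, 1 was called lower, and without TfR1 knockout replicate 1 there were 5. Over all genes, 575, 627, 1111, 659 and 1674 were called lower in these runs. Wdpcp (Fritz), a planar cell polarity protein of the ciliary base, had 245, 243 and 264 normalized counts in Control and 152, 111 and 109 in knockout kidneys (log2 fold change -1.01, DESeq2 adjusted p 4.33e-04, edgeR adjusted p 0.0411). The groups were clearly separated. Cep290, a scaffold of the transition zone, had 242, 256 and 246 in Control and 191, 83.2 and 89.9 in knockout kidneys, where replicate 1 lay nearest to Control (log2 fold change -1.03, DESeq2 adjusted p 0.033). Ift74, a transport B subunit, had 528, 494 and 638 in Control and 354, 415 and 370 in knockout kidneys (log2 fold change -0.54, DESeq2 adjusted p 0.0362).

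Bbs12, the other chaperonin-like gene, had 129, 126 and 136 normalized counts in Control and 99.4, 43.5 and 70.9 in knockout kidneys. As in Bbs10, replicate 2 was the lowest knockout library and the groups did not overlap, but Bbs12 did not pass (log2 fold change -0.86, DESeq2 adjusted p 0.0762). Bbip1, the smallest BBSome subunit, had 637, 700 and 729 in Control and 637, 715 and 658 in knockout kidneys, with a log2 fold change of -0.039 (DESeq2 adjusted p 0.906). Lztfl1, which regulates BBSome traffic, had a log2 fold change of -0.55 (DESeq2 adjusted p 0.0884). The values were -0.20 for Trim32, -0.34 for Sdccag8, -0.28 for Ift27, -0.46 for Ift172, -0.18 for 2610301B20Rik (Cfap418) and 0.12 for Mks1, none past the threshold in DESeq2 or edgeR.

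**Figure D5:**
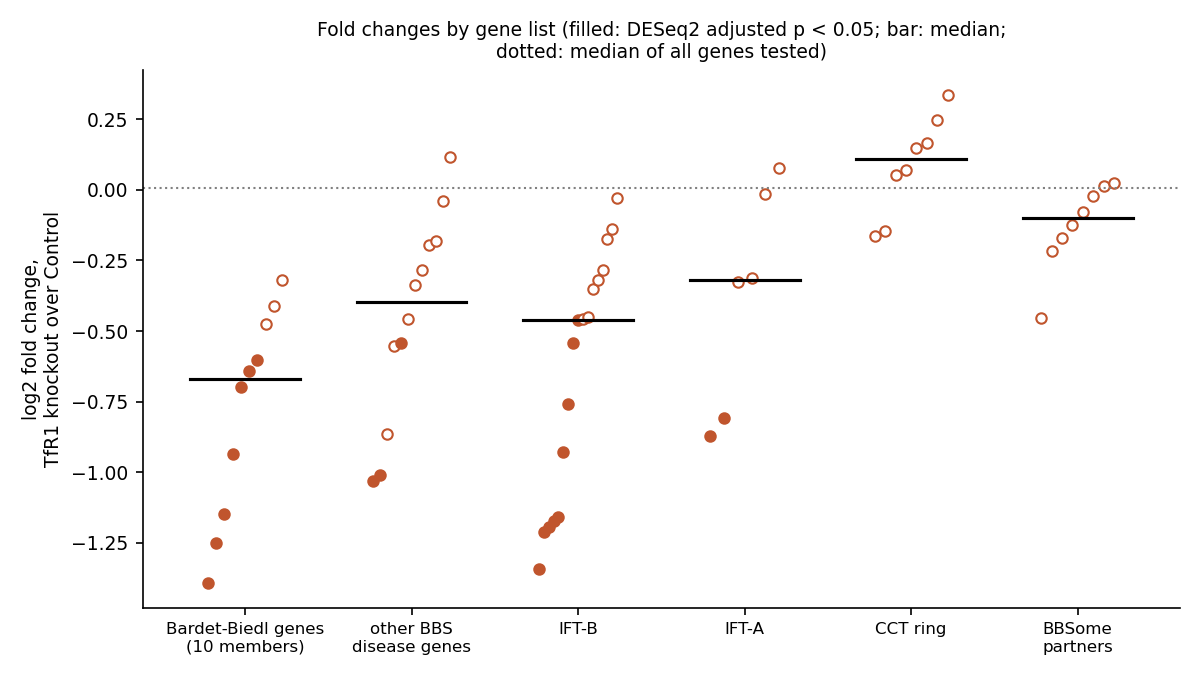
Log2 fold change (y axis, DESeq2) of each gene with an adjusted p in 6 lists, filled where the adjusted p was under 0.05, with a bar at the median of the list and a dotted line at the median of all genes tested. The medians are -0.67 for the 10 members, -0.46 and -0.32 for transport B and A, and 0.11 for the CCT ring.

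The machinery that carries the BBSome along the cilium was lower in part. Of 17 intraflagellar transport B genes, 9 fell, 0 rose and all 17 had negative log2 fold changes (median -0.46), and edgeR called Ttc26 and Ift80. Over all genes tested, 7.18% fell and 7.74% rose in DESeq2, and 2.80% were called lower in edgeR. The 9 were Ift80 (-1.17), Ift22 (-1.19), Ttc26 (-1.16), Ttc30a1 (-1.34), Ttc30b (-1.21), Ift88 (-0.93), Ift81 (-0.76), Ift74 (-0.54) and Cluap1 (-0.46). Ttc30a1 and Ttc30b are close paralogs, and reads that fit both were not counted. Ift74, Ift27 and Ift172 stand in this list and in that of the disease genes. Of 6 transport A genes, Ift122 (-0.87) and Wdr35 (-0.81) fell and 0 rose (median -0.32), Wdr35 in edgeR as well. The groups overlapped in Ift122, with 661 normalized counts in Control replicate 3 and 670 in TfR1 knockout replicate 1. The transport B count dropped to 3 without Control replicate 1 and to 4 when Control replicate 2, Control replicate 3 or the third knockout library was omitted. The transport A count was 1 without Control replicate 1 or 2 or TfR1 knockout replicate 2 or 3. Over all genes, 575, 627 and 1111 were called lower without Control replicates 1 to 3 in turn. Without TfR1 knockout replicate 2 or 3 they were 886 and 659, against 1186 with all 6 libraries.

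None of the 8 CCT ring subunits and none of 8 BBSome partners at the cilium was called in either direction by DESeq2 or edgeR. Their median log2 fold changes were 0.11 and -0.10, and 2 of the 8 ring subunits and 6 of the 8 partners had negative values. The difference between these lists and the members was not tested. Tulp3, a partner named after its values were seen, had 1050, 1032 and 784 normalized counts in Control and 708, 633 and 749 in knockout kidneys, without overlap (log2 fold change -0.45, DESeq2 adjusted p 0.0986). It was the partner called lower with upper-quartile scaling, without Control replicate 3 (with or without TfR1 knockout replicate 2) and with the GC trend removed. Of 8 receptors and signalling proteins that the BBSome carries, 7 received an adjusted p and only Npy2r, a neuropeptide Y receptor, was called lower. Its counts were few, at 34.6, 13.6 and 11.8 in Control and 5.97, 0 and 2.84 in knockout kidneys, and edgeR did not call it (adjusted p 0.0984). Of 6 transcription factors of ciliary genes, Rfx2 was called lower, with 147, 130 and 125 normalized counts in Control and 89.5, 33.3 and 64.3 in knockout kidneys (log2 fold change -1.09, DESeq2 adjusted p 0.0348, edgeR adjusted p 0.12). Rfx1, Rfx3, Rfx7 and Foxj1 were not called, and Rfx4 received no adjusted p.

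RFX factors bind the X-box, an imperfect inverted repeat near the start of many ciliary genes, so the promoter windows of the members are shown where they hold such letters. RefSeq windows (GRCm38.p6, another build than that of the counts) from 250 bases before to 50 after the start were matched for 10 of 10 members. GTNNCC and GGNAAC separated by any 2 bases, searched on both strands, were found in Bbs1, Bbs4 and Bbs7, 3 of 10, and in 1.29% of all 32851 windows. Members are counted here as genes and the background as windows, so the units are unlike. This spelling was 1 of 5 tried, and it was kept after the matches had been seen. A stricter one, GTTNCC and GGNAAC with 0 to 3 bases between, was found in Bbs7 only and in 0.8% of all windows. With 2 bases between that are only A or T, it was again Bbs7 only and 0.26%. A looser one allowed 0 to 3 bases between and 1 or 2 free bases in the right part. It was found in Bbs1, Bbs4 and Bbs7 and in 6.68% of all windows. GTTGCC alone was found in Bbs1, Bbs5 and Bbs7 and in 12.51%. Among the lists above, the kept spelling was also found in Mks1, Cct2, Rab3ip, Ift22, Ift57 and Ttc26. Bbs7 and Bbs1 were called lower and Bbs4 was not, while Ttc8, with the lowest log2 fold change, held no match. The matches of the kept spelling are in capitals in the stretches of these 4 windows below, read on the strand of the gene. The capitals of Bbs1 match on the other strand and those of Bbs7 on both.
Bbs7 promoter (chr3:36613478-36613577, minus strand, positions -188 to -89 from the start): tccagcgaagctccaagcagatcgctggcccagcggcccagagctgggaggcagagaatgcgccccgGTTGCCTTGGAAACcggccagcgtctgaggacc
Bbs1 promoter (chr19:4906613-4906712, minus strand, 85 bases before to 15 after the start): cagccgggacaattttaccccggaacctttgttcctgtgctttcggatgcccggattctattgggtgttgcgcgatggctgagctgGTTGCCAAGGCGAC
Bbs4 start region (chr9:59353464-59353493, minus strand, 16 to 45 bases after the start): ctcagctgGTCGCCCGGGAAACggtcggct
Ttc8 promoter (chr12:98920474-98920573, plus strand, the 100 bases before the start, no match): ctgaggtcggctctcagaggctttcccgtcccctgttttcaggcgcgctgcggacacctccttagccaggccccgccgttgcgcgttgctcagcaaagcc

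Markers of some other cells moved with the groups. All 6 thick ascending limb markers fell, and their summed normalized counts were 51175 to 115639 in Control and 13956 to 26572 in knockout kidneys. All 3 distal convoluted tubule markers fell (11272 to 22529 in Control, 736 to 1783 in knockout). Of 8 proximal tubule markers 3 fell and 1 rose (62959 to 127464 against 63932 to 107066), and of 6 proliferation genes 5 fell (7052 to 8884 against 2527 to 4375). Of 6 principal cell markers 3 rose (8202 to 17359 against 33526 to 61657), as did 5 of 7 macrophage markers (2257 to 3556 against 5275 to 7944). Aqp2 made up most of the principal cell sums in knockout kidneys. It had 5747, 5581 and 2409 normalized counts in Control and 17805, 50719 and 23564 in knockout kidneys. Scnn1g, Avpr2 and Hsd11b2 were not called. Of 5 stroma markers 1 fell (Col3a1, edgeR adjusted p 0.134). Their sum was 99436 in Control replicate 3 against 46110 to 48689 in the other Control libraries. In knockout kidneys it was 27160.5 to 46739.7, so the groups overlapped. The motile cilia list fell in 2 of 13 genes, with sums of 435 to 474 in Control and 302 to 347 in knockout kidneys. Its master regulator Foxj1 had 34.6, 39.1 and 36.6 normalized counts in Control and 23.9, 12.8 and 16.1 in knockout kidneys, without overlap. Foxj1 was not called (log2 fold change -1.05, DESeq2 adjusted p 0.107, edgeR adjusted p 0.119). Dnah9 and Dnah11, axonemal dynein genes, were the 2 called. Of 5 intercalated cell markers 3 fell and 1 rose, of 6 podocyte and 6 endothelial markers 1 each rose, and of 5 nephron progenitor markers 1 fell and 1 rose. The summed counts of both groups overlapped in these lists except the last (544 to 718 against 353 to 489). Meox1, the progenitor marker called lower, made up most of these last sums. It had 386, 464 and 647 normalized counts in Control and 257, 233 and 309 in knockout kidneys. Eya1 was the progenitor marker called higher, with a mean of 12.3 in Control and 53.6 in knockout kidneys. Six2 itself had few counts, at 4.12, 3.64 and 5.38 in Control and 7.96, 6.40 and 7.57 in knockout kidneys, and was not called. The erythroid markers had no call, and Hba-a1 and Hbb-b1 were listed at 0 in every library. These calls are those of DESeq2. EdgeR called 5 thick ascending limb, 3 distal convoluted tubule, 1 proximal tubule, 3 proliferation, 2 motile cilia and 2 intercalated cell markers lower. It called 1 proximal tubule, 2 principal cell, 4 macrophage, 1 podocyte and 1 progenitor marker higher. No endothelial or stroma marker was called by edgeR, and no progenitor marker was lower in it. The part of these cell markers in the values of the Bardet-Biedl genes was not tested.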

How the data were processed

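Raw counts per gene were deposited by the authors, with no normalization, for 6 libraries from poly-A RNA (single-end TruSeq). The submitters' processing notes name CASAVA 1.8.2, Trimmomatic, TopHat2 2.0.11, HTSeq and mm9; the annotation and strand setting of the counting are not given in the sources used here. Only uniquely aligned reads were counted.

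DESeq2 1.42.0 (R 4.3.3; Wald test, median-ratio size factors, Benjamini-Hochberg adjustment over 16509 genes, independent filtering tuned at 0.05, no covariate) was fitted to the whole table, as the study names DESeq2. Log2 fold changes are unshrunken, and 95% intervals are normal intervals from the SE. Alternatives were edgeR 4.0.16, limma 3.58.1 with voom, other size factors and filters, the replicate block and leaving out each library. Leaving out 2 libraries and removing a GC trend were added after seeing the data. Scripts were tested on simulated data. Positions are from GENCODE for mm9, matched by symbol.

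The members and lists were chosen with earlier results of these data known. Named genes are the members, the other disease genes, called genes of the other pathway lists, Tfrc and the 5 most alike genes.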

Additional observations from a re-analysis of the deposited data

How the results depend on the processing

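No member changed sign in any alternative run. Of 170 alternative values of the 10 members, 134 stayed on the same side of the threshold, 32 lost a call and 4 gained one. Only the 7 members called with all libraries could lose a call. Turning outlier filtering off left their log2 fold changes as they were. The 7 members called lower became 2 in edgeR, 3 in limma-voom and 3 with a fold change of at least 2, and ranged from 2 to 6 when 1 library was left out. The lowest counts were without Control replicate 1 or Control replicate 2, where the calls over all genes also dropped, to 575 and 627 lower against 1186. The median log2 fold change of the members was -0.77 with total-count scaling, where the median of all genes was -0.097, and ran from -0.71 to -0.66 without 1 library. With the replicate number as a block, 5 members were called (Bbs1, Bbs2, Bbs7, Ttc8 and Bbs10), where 1087 of all genes were called lower against 1186. Arl6 and Bbs5 then had DESeq2 adjusted p of 0.0976 and 0.227. Same-numbered libraries deviated together with correlations of -0.0371, -0.0321 and 0.0854 over 12114 genes, so the numbers were not taken as pairs. Bbip1 had a log2 fold change of 5.31e-04 without Control replicate 3, a reversal of a value near 0. The cause of these changes was not tested. Bbs10, Ttc8 and Bbs1 had 17 to 99 reads in TfR1 knockout replicate 2, and there were 3 libraries a group, which limits the precision of their values.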
